A study of Mus musculus with 24 samples.

Results

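The genes described here are 40 cell cycle and DNA replication genes, chosen by name as a module and read from 5 deposited comparison tables of mouse brown fat. They comprise 14 genes of DNA replication and entry into S phase and 26 genes of mitosis, among 13162 genes that appear in any table. A table lists a gene only where the mean of at least one of its 2 groups reached 0.5 RPKM, a level scaled to gene length and library size. In all, 37 of the 40 were listed in some table and 18 in all 5, while Bub1, Birc5 and Cenpe were listed in none. A member missing from a table was thus below 0.5 RPKM in both of its groups, and it stays in the 40 that every count refers to. Because a low member enters a table only through a group in which it is high, the members listed are a selected set.

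The tissue was interscapular brown fat, a depot that burns fuel to make heat, of male C57BL/6 mice aged 10 to 12 weeks, collected at ZT10. Control mice were HDAC3 floxed. KO mice were Ucp1-cre HDAC3 floxed, so that Cre acts from the promoter of Ucp1, a gene of mature brown adipocytes, and is not driven in other cells of the depot. Both genotypes were studied at 22 °C, and after 24 h at 15 °C followed by a return to 22 °C for 24 h or for 7 d. This gave 6 groups of 4 libraries each. All groups carry the floxed alleles, and no group was collected during the cold itself. The design asks whether cold leaves a lasting effect with and without Hdac3.

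Cells commit to division when E cyclins and E2F factors switch on the genes of DNA synthesis. The MCM proteins form the helicase that unwinds the template, PCNA clamps the polymerases to it, ribonucleotide reductase and thymidylate enzymes supply the nucleotides, and Uhrf1 carries DNA methylation over to the new strand. Later, Cdk1 with cyclins A and B, the Aurora and Polo kinases and the spindle motors drive mitosis, whose genes are controlled by the DREAM and MuvB complexes. Mature brown adipocytes rarely divide, and cold is known to bring precursors and stromal cells of the depot into division. In whole tissue, more dividing cells and more transcript per dividing cell cannot be told apart.

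Promoters of both sets are shown because the members fall into these classes. After cold, 19 of 26 mitotic and 6 of 14 replication members rose in Control in the authors' deposited table (13.1% of all genes did), and 10 of 26 and 9 of 14 in KO (22.1% of all genes), and the difference between the sets was not tested. Upstream windows were taken from RefSeq (GRCm38.p6, another build than the mm9 of the expression tables), in which 34 of the 40 members were found. Each line gives the 250 bases before the annotated start on the gene's strand. Capitals mark the CCAAT box (CCAAT), the cell cycle genes homology region or CHR (TTTGAA or TTCGAA) and an E2F site. The E2F site was taken as TTGGCGC or as TTCCCGC, and likewise as TTCGCGC or as TTGCCGC. Each motif was searched on both strands. Overlapping matches run together, as do TTCGCGC and GCGCCAA in Mcm5. Top2a (chr11:99024190-99024439, minus strand) and Ccnb2 (chr9:70421555-70421804, minus strand) stand for the mitotic genes, and Mcm5 (chr8:75109259-75109508, plus strand) and Uhrf1 (chr17:56303087-56303336, plus strand) for the replication genes.
Top2a: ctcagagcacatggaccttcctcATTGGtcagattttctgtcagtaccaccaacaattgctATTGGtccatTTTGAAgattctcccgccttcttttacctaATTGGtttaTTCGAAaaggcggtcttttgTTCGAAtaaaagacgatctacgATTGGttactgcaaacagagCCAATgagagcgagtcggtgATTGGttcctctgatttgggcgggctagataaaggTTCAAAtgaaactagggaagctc
Ccnb2: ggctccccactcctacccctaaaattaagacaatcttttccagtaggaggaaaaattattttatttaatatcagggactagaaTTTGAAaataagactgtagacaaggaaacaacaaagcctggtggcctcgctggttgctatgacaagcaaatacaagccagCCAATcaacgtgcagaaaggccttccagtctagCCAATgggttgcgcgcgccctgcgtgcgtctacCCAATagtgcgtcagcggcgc
Mcm5: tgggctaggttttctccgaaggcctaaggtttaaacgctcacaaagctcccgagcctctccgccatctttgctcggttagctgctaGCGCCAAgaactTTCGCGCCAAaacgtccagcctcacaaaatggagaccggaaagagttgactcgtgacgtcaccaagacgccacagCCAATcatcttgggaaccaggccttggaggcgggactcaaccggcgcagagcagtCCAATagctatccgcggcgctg
Uhrf1: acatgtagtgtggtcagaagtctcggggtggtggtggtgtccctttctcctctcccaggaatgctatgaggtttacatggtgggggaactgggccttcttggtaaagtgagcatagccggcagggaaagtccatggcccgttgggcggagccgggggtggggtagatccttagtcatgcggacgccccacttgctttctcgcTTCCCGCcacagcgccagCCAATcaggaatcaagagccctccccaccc

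Over the 300 bases from 250 before to 50 after the start, 81.8% of the 22 mitotic members with a window held a CHR, against 16.7% of the 12 replication and E cyclin members and 19.4% of 27025 genes. A CCAAT box together with a CHR stood in 77.3% of the mitotic windows, 16.7% of the replication windows and 7.7% of all. An E2F site stood in 58.3% of the replication windows, 22.7% of the mitotic windows and 9.69% of all. A CCAAT box alone was frequent in both sets, in 75% and 86.4% of windows against 37.9% of all. The Top2a window holds 6 CCAAT boxes and 4 CHR matches. Mcm5 holds 3 E2F matches and no CHR. A match is a run of letters and not a measured binding site.

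Library totals, and from them reads per library, were recovered from the deposited means. With the 4 totals inferred, a mean of 4 whole counts had a single solution for at least 99.96% of the genes tried in each group. Library totals ran from 4.64 to 12.5 Mreads (megareads, written M). Libraries are therefore named by their total, since they cannot be tied to replicate numbers. A member of 3 kb at the listing minimum has about 12.6 reads in an average library, so many mitotic members were counted with few reads and single libraries can set a mean. The deleted gene checked the labels: Hdac3 was at 24.8 to 28.3 RPKM in the Control libraries at 22 °C and at 8.17 to 9 in the KO libraries, and it was lower in KO at all 3 times. Of 10 skeletal muscle markers, which mark tissue next to the depot, the 4 read in all libraries summed to between 0.233 and 829 RPKM. High and low libraries stood inside each group.

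The members themselves were uneven within groups, most of all in Control at 24 h. Among the 4 Control libraries at 24 h, the deepest, of 9.81 M reads, was the highest for 37 of 37 members, and the library of 8.93 M reads was second for 36 of them, all but Ube2c. The same library was the highest for 51.0% of all genes read in that group, and for 29.2% once libraries were scaled to their median gene. In the KO libraries at 24 h the highest library varied more. The deepest, of 12 M reads, was the highest for 19 of 37 members, against 20.4% of all genes read in that group and 21.6% after the same scaling. In KO at 22 °C, the library of 9.53 M reads was the highest for 22 of 33 members, against 37.6% of all genes. After scaling it was the highest for 19 of them, against 27.1%. In Control at 7 d, the library of 6.87 M reads was the highest for 12 of 22 members, against 27.5% of all genes. Results that use the Control libraries at 24 h are also given without those of 9.81 and 8.93 M reads. Leaving out the 2 highest of the 4 lowers the member levels of that group by construction, and fewer libraries are left to test with. The heat map of all libraries shows this spread.

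**Figure D1:**
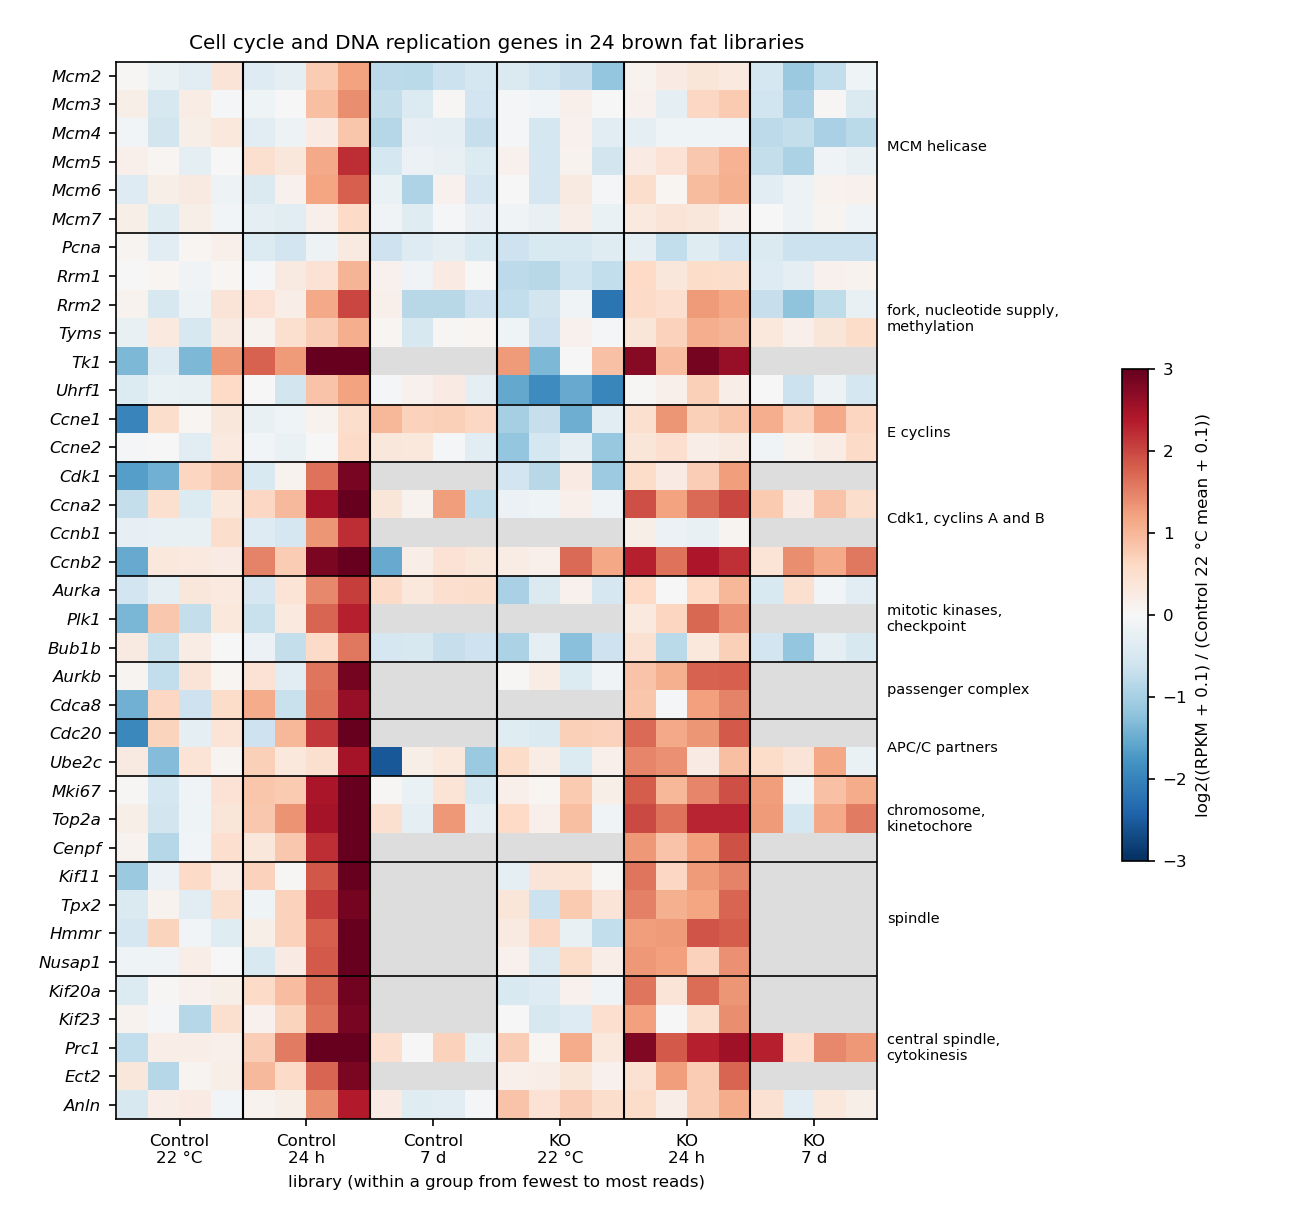
Each row is 1 of the 37 members listed in some table, ordered by role, and each column 1 of 24 libraries, ordered within a group from fewest to most reads. Colour is log2 of (RPKM + 0.1) over the Control mean at 22 °C + 0.1, and grey marks groups in which a member was not listed. The right-hand 2 of the Control libraries at 24 h are the reddest columns, while the 4 KO libraries at 24 h are more alike.

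Much of the module was higher after the cold and 24 h of recovery than at 22 °C in both genotypes. In the authors' deposited table for Control, 25 of the 40 members were higher at 24 h than at 22 °C at an adjusted p of 0.05 (62.5% of them, against 13.1% of all 12830 genes tested) and 0 were lower (8.67% of all genes). In the authors' deposited table for KO, 19 of 40 were higher (47.5%, against 22.1% of 12577 genes) and 0 were lower (19.8% of all genes). At an unadjusted p of 0.05, 30 members were higher in Control (18.6% of all genes) and 26 in KO (24.9%), with 0 lower (14.3% and 23.5% of all genes) in the authors' deposited tables. A limma fit to the recovered reads called 17 members higher in Control (11.1% of all genes) and 20 in KO (20.7%), with 0 lower in either (8.81% and 18.4% of all genes). The median log2 fold change of the listed members in the authors' deposited tables was 1.75 in Control and 1.23 in KO, against medians of 0.01 and -0.02 for all listed genes. These medians include members that were listed only because their level at 24 h was high. Over the 18 members listed in all tables the Control median was lower and lay below that of KO, as given in the closing section on processing. The difference between these medians was not tested.

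More members separated fully between the times in KO than in Control, as did more of all genes, and this was not tested. With levels scaled by library totals alone, 20 members in KO were higher in all 4 libraries at 24 h than in any library at 22 °C (19.5% of all genes were). In Control 8 were (7.27% of all genes). Those 8 were Mcm5, Ccna2, Ccnb2, Mki67, Top2a, Kif20a, Prc1 and Ect2. Without the 9.81 M library, the limma count in Control fell from 17 to 11 members higher and the median of the members from 1.36 to 0.84 on the log2 scale. Without the 8.93 M library it was also 11, with the same genes in both cases. Without both, a choice made after their values were seen, it was 2, Mki67 and Prc1 (6.55% of all genes were higher). The median of the members was then 0.54, and leaving out 2 of 4 libraries also weakens the test. In KO, leaving out any single 24 h or 22 °C library of that genotype left between 14 and 19 members higher.

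**Figure D2:**
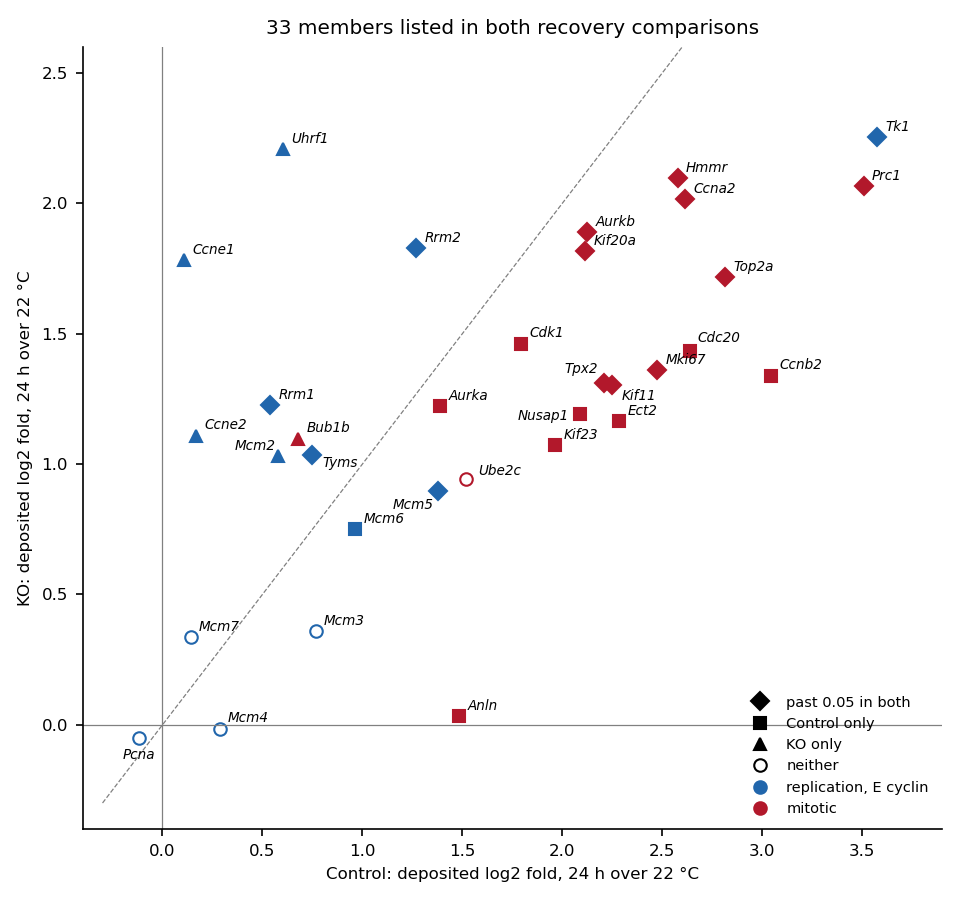
Deposited log2 fold changes of the 33 members listed in both recovery tables, Control on the x axis and KO on the y axis. Filled markers passed an adjusted p of 0.05 in one or both genotypes, blue marks replication and E cyclin members, red mitotic members, and the dashed line marks equal changes. Most mitotic members lie below the line, while Uhrf1, Ccne1, Ccne2 and Rrm1 lie above it.

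Among the 6 MCM helicase genes, Mcm5 rose in both genotypes. Its RPKM was 0.978, 0.899, 0.700 and 0.877 in the Control libraries at 22 °C and 1.24, 1.13, 2.02 and 4.39 at 24 h, in order of depth. All 4 libraries at 24 h were above the 4 at 22 °C, by a small margin in 2 of them. In the authors' deposited table this was a 2.6-fold rise (adjusted p = 0.00131). In KO it went from 0.759 ± 0.223 to 1.43 ± 0.385 RPKM (SD, n = 4), 1.86-fold in the authors' deposited table (adjusted p = 0.0335).
The other subunits were less uniform. Mcm6 was called in Control alone (1.95-fold, adjusted p = 0.0226 in the authors' deposited table), and limma did not call it (adjusted p = 0.0903). Mcm2 was called in KO alone (2.04-fold, adjusted p = 0.00750 in the authors' deposited table). Mcm3 and Mcm4 passed in neither genotype. Mcm7, the most abundant subunit at 6.09 RPKM in Control at 22 °C, had log2 changes of 0.14 and 0.34 in the authors' deposited tables and passed in neither, while limma called it in KO (0.37, SE 0.13, adjusted p = 0.0290). The difference between the genotypes' changes was not called for any subunit whose interaction could be tested. Without the 9.81 and 8.93 M Control libraries limma called it for Mcm2 (log2 1.24, SE 0.37, adjusted p = 0.0379). Those libraries held the highest Mcm2 levels of their group, so leaving them out raises this difference by construction.

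Pcna, the polymerase clamp, was the most abundant member and passed in no comparison. It measured 22.0 ± 3.09 RPKM in Control at 22 °C and 19.4 ± 5.25 at 24 h, and 15.9 ± 1.19 and 15.8 ± 2.26 in KO. Its log2 changes were -0.12 and -0.05 in the authors' deposited tables (adjusted p = 0.660 and 0.871), with limma standard errors of 0.125 and 0.124.

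The nucleotide supply genes rose in both genotypes. Rrm1 and Rrm2 encode the subunits of ribonucleotide reductase, Tyms thymidylate synthase and Tk1 thymidine kinase. Rrm1 was at 6.41, 6.74, 5.97 and 6.73 RPKM in Control at 22 °C and at 6.33, 7.85, 8.83 and 13.3 at 24 h, so that 1 of the recovered libraries lay within the 22 °C range. In KO it was at 3.72, 3.58, 4.22 and 3.82 at 22 °C and at 9.77, 8.19, 9.54 and 9.30 at 24 h, with no overlap. The authors' deposited table gave 1.45-fold in Control (adjusted p = 0.00762) and 2.34-fold in KO (adjusted p = 1.66e-12). Rrm2 rose 2.41-fold in Control and 3.55-fold in KO in the authors' deposited table (adjusted p = 0.0181 and 0.000192). For Rrm2 in Control, limma gave an adjusted p of 0.0772. Tyms rose 1.68-fold and 2.05-fold in the authors' deposited tables (adjusted p = 0.0290 and 0.000338). Tk1, listed in 3 tables, was counted with 0 to 6 reads per library at 22 °C and 6 to 62 in Control at 24 h, and its 11.9-fold rise in the authors' deposited table (adjusted p = 0.000212) rests on those few reads.

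Uhrf1, which brings the maintenance methyltransferase to replicated DNA, changed in KO. Its RPKM in KO was 0.485, 0.359, 0.488 and 0.334 at 22 °C and 1.63, 1.78, 2.67 and 1.83 at 24 h. Every 24 h library was above every 22 °C library. The authors' deposited table gave a 4.62-fold rise (adjusted p = 9.46e-10). In Control it was at 1.59 ± 0.578 RPKM at 22 °C and 2.34 ± 1.25 at 24 h, a 1.52-fold difference that did not pass (adjusted p = 0.149 in the authors' deposited table).

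The E cyclins, which activate Cdk2 at the entry into S phase, showed the same contrast. Ccne1 was at 0.482, 0.614, 0.322 and 0.832 RPKM in KO at 22 °C and at 1.52, 2.78, 1.79 and 1.96 at 24 h, 3.44-fold higher in the authors' deposited table (adjusted p = 6.24e-06). In Control it was at 0.191, 1.58, 1.10 and 1.36 at 22 °C and at 0.885, 0.961, 1.15 and 1.56 at 24 h. These ranges overlap, and the authors' deposited table gave 1.08-fold (adjusted p = 0.875). Ccne2 rose 2.16-fold in KO (adjusted p = 0.000113) and was 1.12-fold higher in Control (adjusted p = 0.758) in the authors' deposited tables.

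Among the 26 mitotic members, Cdk1 and the A and B cyclins form the kinase that starts mitosis. Ccna2 was at 0.199, 0.596, 0.271 and 0.515 RPKM in Control at 22 °C and at 0.663, 0.878, 2.71 and 5.70 at 24 h. In KO it was at 0.336, 0.349, 0.448 and 0.362, then at 1.78, 1.04, 1.52 and 1.90. Neither pair of groups overlapped, but the Control libraries at 24 h spanned a much wider range. The folds in the authors' deposited tables were 6.13 and 4.04 (adjusted p = 3.33e-05 and 0.000809). Ccnb2 rose 8.26-fold in Control (adjusted p = 6.56e-05), with 0 to 3 reads per library at 22 °C, and was 2.53-fold higher in KO without passing (adjusted p = 0.0625), both in the authors' deposited tables. Cdk1 was called in Control alone (3.46-fold, adjusted p = 0.0325 in the authors' deposited table). Ccnb1, listed in 2 tables, was called in none.

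The chromosome genes followed. Top2a, the topoisomerase that untangles sister chromatids, was at 0.681, 0.370, 0.535 and 0.786 RPKM in Control at 22 °C and at 1.12, 1.67, 3.80 and 9.97 at 24 h. In KO it was at 0.95, 0.670, 1.19 and 0.546 at 22 °C and at 2.64, 2.06, 3.26 and 3.28 at 24 h. All recovered libraries exceeded all 22 °C libraries of their genotype. The authors' deposited tables gave 7.04-fold in Control (adjusted p = 1.33e-06) and 3.29-fold in KO (adjusted p = 0.00157). Without the 9.81 M library, limma gave a 3.63-fold rise of Top2a in Control (adjusted p = 0.00808), against 5.28-fold with it. Mki67, the chromosome surface protein used as a proliferation marker, was at 0.538, 0.333, 0.478 and 0.743 RPKM in Control at 22 °C and at 1.00, 0.980, 3.28 and 6.19 at 24 h. It rose 5.56-fold in Control (adjusted p = 2.75e-07) and 2.57-fold in KO (adjusted p = 0.00292) in the authors' deposited tables. Cenpf, a kinetochore protein listed in 2 tables, rose 7.57-fold in Control in the authors' deposited table (adjusted p = 3.46e-05).

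All 4 spindle genes passed in Control and 3 of them in KO in the authors' deposited tables, namely Kif11, the motor that separates the poles, Tpx2, the activator of Aurora A, and Hmmr. Nusap1 passed in Control only. Limma did not call Nusap1 in Control (adjusted p = 0.0959) or Kif11 in KO (adjusted p = 0.0775). The 5 central spindle and cytokinesis genes all passed in Control, and Prc1 and Kif20a also in KO. Prc1, which bundles the midzone microtubules, was at 0.0618, 0.213, 0.210 and 0.199 RPKM in Control at 22 °C and at 0.352, 0.699, 2.07 and 5.09 at 24 h, and at 0.351, 0.180, 0.485 and 0.236, then 1.76, 0.876, 1.27 and 1.49 in KO. Its groups did not overlap in either genotype, and its folds in the authors' deposited tables were 11.4 and 4.19 (adjusted p = 1.39e-06 and 0.00192). By limma, its fold in Control was 7.56, and 4.97 without the 9.81 M library.

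Of the kinases and checkpoint genes, Aurka and Plk1 lay near the listing minimum. The tools called Aurka in different genotypes. In the authors' deposited tables it passed in Control (2.62-fold, adjusted p = 0.0400) and not in KO (adjusted p = 0.0608), while limma called it in KO (log2 change 1.21, SE 0.45, adjusted p = 0.0350) and not in Control (adjusted p = 0.0996). The difference between its changes was 0.16 by limma (SE 0.64, adjusted p = 0.912). Plk1, at 0.560 RPKM in Control at 24 h, was called nowhere. Bub1b, a spindle checkpoint kinase, was called in KO alone (2.14-fold, adjusted p = 0.0275 in the authors' deposited table). In Control it was 1.60-fold higher without passing (adjusted p = 0.268 in the authors' deposited table). The difference between the 2 changes was not called by limma (0.60, SE 0.55, adjusted p = 0.538). Aurkb, the enzyme of the passenger complex, rose in both genotypes (4.36-fold and 3.71-fold, adjusted p = 0.0188 and 0.0212 in the authors' deposited tables), and limma called it in KO (adjusted p = 0.0222) and not in Control (adjusted p = 0.0828). Of the partners of the anaphase-promoting complex, Cdc20 passed in Control (6.22-fold, adjusted p = 0.00455 in the authors' deposited table) and Ube2c passed in neither genotype. Cdc20 was at 0.149, 0.659, 1.57 and 5.15 RPKM in those 4 Control libraries, overlapping the 22 °C group, and limma did not call it (adjusted p = 0.0593).

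Summed over the 19 mitotic members read in every 22 °C and 24 h library, Control libraries at 24 h held 9.37, 11, 30.1 and 70.6 RPKM, against 5.40 to 8.39 at 22 °C. KO libraries held 21.5, 14.1, 19.6 and 24.4, against 6.46 to 9.28. The sums did not overlap between the times in either genotype, and the KO sums at 24 h lay inside the range of the Control sums. For the 14 replication and E cyclin members, the Control sums at 24 h were 41.2, 41.3, 61.4 and 89.6, which overlapped those at 22 °C (42.0 to 53.9). The KO sums rose from between 33.6 and 39.6 to between 47.1 and 58.2, with no overlap.

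Macrophage markers moved with the Control members. The sum of 16 such markers, among them Csf1r, Cd68 and the C1q chains, was 87.6, 118, 321 and 420.4 RPKM in the Control libraries at 24 h, against 82.7 to 126 at 22 °C. The 2 libraries with the highest macrophage sums were the 2 with the highest mitotic sums. Of the 19 markers listed for macrophages, 14 rose and 0 fell in Control in the authors' deposited table, and none of the listed ones was at 0. In KO the same 16 markers summed to 147, 107, 152 and 178 at 24 h and to 111 to 173 at 22 °C, overlapping ranges, and 0 of 19 rose and 2 fell in the authors' deposited table. The mitotic sums in KO did not overlap between those times. Summed over 7 preadipocyte and fibroblast markers, the Control libraries at 24 h held 66.4, 76.5, 92.5 and 125 RPKM, against 53.2 to 78.1 at 22 °C, so that 2 of the 4 lay inside that range. In Control, 4 of 12 such markers rose and 0 fell in the authors' deposited table. The KO libraries held 56.8 to 97.3 at 24 h and 43.4 to 63.5 at 22 °C, and 1 of the 12 rose and 3 fell in the authors' deposited table. Of 11 endothelial markers 1 rose and 0 fell in Control in the authors' deposited table. Beside these marker counts, 13.1% of all genes rose and 8.67% fell in Control recovery, and 22.1% rose and 19.8% fell in KO recovery. The part of these cells in the member changes was not tested.

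**Figure D3:**
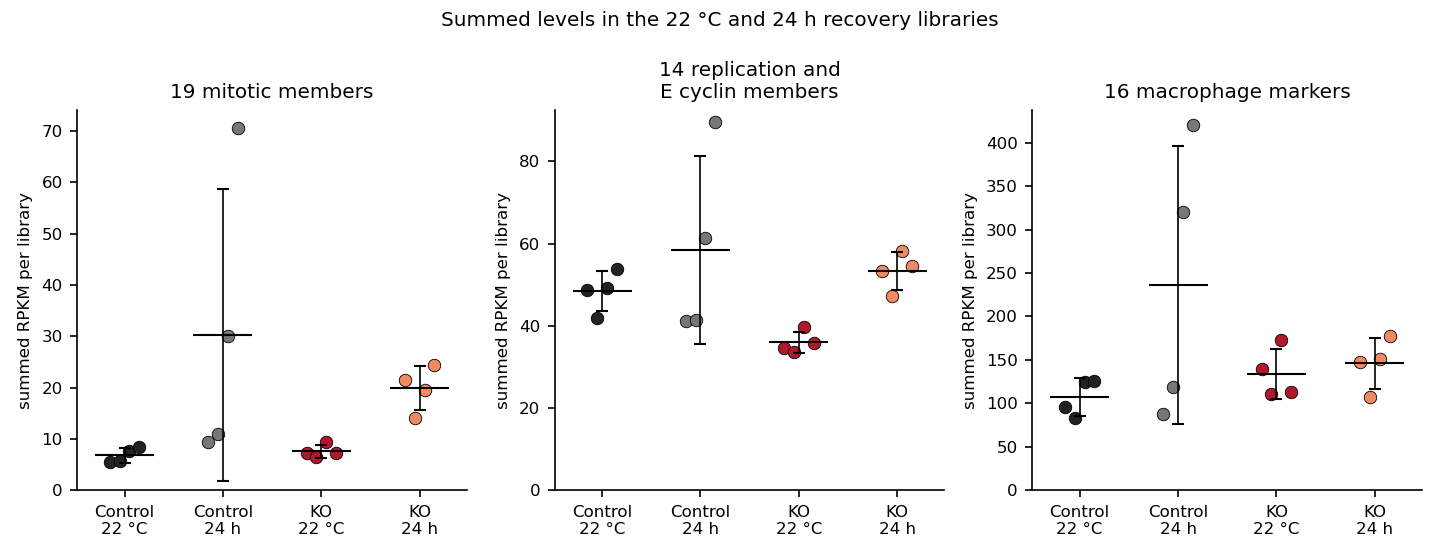
Summed RPKM per library of 19 mitotic members, 14 replication and E cyclin members and 16 macrophage markers, at 22 °C and at 24 h of recovery. Points are libraries, ordered by depth, lines are means and bars are SD (n = 4). In Control at 24 h the mitotic sum runs from 9.37 to 70.6 and the macrophage sum from 87.6 to 420.4, while the KO mitotic sum runs from 14.1 to 24.4.

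At 22 °C, loss of Hdac3 in brown adipocytes went with lower Uhrf1 and Rrm1. Of the 40 members, 2 were lower in KO in the authors' deposited table (5%, against 18% of 12710 genes) and 1, Anln, was higher (2.5%, against 16.3% of all genes). Only 18 members were listed in this comparison, since most mitotic genes were below the minimum in both genotypes. Uhrf1 was at 1.18, 1.38, 1.35 and 2.45 RPKM in Control and at 0.485, 0.359, 0.488 and 0.334 in KO, without overlap. The authors' deposited table gave a 3.24-fold lower level (adjusted p = 7.74e-06), and limma a log2 difference of -1.58 (SE 0.28, adjusted p = 8.84e-05). Rrm1 was at 6.46 ± 0.364 RPKM in Control and 3.83 ± 0.278 in KO (SD, n = 4), also without overlap, and it was 1.43-fold lower in the authors' deposited table (adjusted p = 0.00861). Limma called both lower whichever of the 24 libraries was left out. Such separation was frequent, since 30.6% of all genes had every KO library below every Control library in RPKM at 22 °C, among them the members Mcm2 and Pcna, while 6.35% had every KO library above, as did Anln.
The E cyclins also had lower means in KO at 22 °C, but neither passed. Ccne2 was at 1.36 ± 0.255 RPKM in Control and 0.785 ± 0.273 in KO (adjusted p = 0.109 in the authors' deposited table), and Ccne1 at 1.06 ± 0.610 and 0.563 ± 0.216 (adjusted p = 0.176). Limma called Ccne2 lower without the Control library of 7.88 M reads, or without the KO library of 9.16 or that of 9.53 M. It called Ccne1 lower without the Control library of 5.35 M, in which Ccne1 had 2 reads. Anln, the cytokinetic scaffold anillin, was at 0.345, 0.618, 0.632 and 0.490 RPKM in Control and at 1.02, 0.745, 0.929 and 0.788 in KO, 1.93-fold higher in the authors' deposited table (adjusted p = 0.0497). Limma lost that call without the Control libraries of 5.35 or 8.29 M reads, or the KO libraries of 8.48 or 9.53 M.

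After 24 h of recovery 1 member differed between genotypes in the authors' deposited table. Ccne1 was at 1.14 ± 0.304 RPKM in Control and 2.01 ± 0.541 in KO, 1.94-fold higher in the authors' deposited table (adjusted p = 0.0275), and limma did not call it (adjusted p = 0.112). Thus 1 of 40 was higher (2.5%, against 10.5% of 12657 genes) and 0 were lower (7.96% of all genes), while at an unadjusted p of 0.05 the authors' deposited table had 2 higher and 1 lower (15.2% and 14.4% of all genes). For no member did all KO libraries lie above all Control libraries at 24 h (3.78% of all genes) or below them (18.4%). Limma called Mcm7 higher instead (8.29% of all genes, with 0 members lower against 6.41%; log2 difference 0.46, SE 0.13, adjusted p = 0.0200), which had an adjusted p of 0.0946 in the authors' deposited table. The median log2 difference of the members was -0.32 in the authors' deposited table and 0.09 by limma, and the latter was -0.26 without the Control library of 7.51 M reads, -0.20 without that of 8.51 M, 0.20 without that of 8.93 M and 0.44 without that of 9.81 M. Without both of the last, limma gave a median of 0.81 and called 4 members higher in KO (5.53% of all genes), namely Mcm6 (log2 difference 0.93, adjusted p = 0.0493), Mcm7 (0.73, adjusted p = 0.00128), Nusap1 (1.59, adjusted p = 0.0198) and Rrm1 (0.49, adjusted p = 0.0232). Both libraries held the highest Control levels of nearly all members, so leaving them out raises KO over Control by construction.

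The genotype difference itself changed between 22 °C and 24 h for some members. Only 14 of the 40 members could be tested with an error rebuilt from the deposited p-values. Of the 40, 3 had a higher KO effect at 24 h than at 22 °C (7.5%, against 10.8% of the 10734 genes tested) and 1 a lower one (2.5%, against 7.39%). The member shares count untested members as not called, so they cannot be set directly beside the shares of tested genes. The log2 difference of effects was 1.61 for Uhrf1 (SE 0.49, adjusted p = 0.00853), 0.69 for Rrm1 (SE 0.23, adjusted p = 0.0191), 1.67 for Ccne1 (SE 0.53, adjusted p = 0.0121) and -1.45 for Anln (SE 0.54, adjusted p = 0.0435). Limma called Uhrf1 (1.67, SE 0.39, adjusted p = 0.00528), Rrm1 (0.74, SE 0.19, adjusted p = 0.00973) and Ccne2 (1.03, SE 0.32, adjusted p = 0.0368), and kept Uhrf1 and Rrm1 whichever library was left out. Without the 9.81 and 8.93 M Control libraries, the highest for these members, it called Uhrf1, Rrm1, Ccne2 and Mcm2 (5.23% of all genes were higher). Leaving them out raises these differences by construction. Among mitotic members Anln alone was called, and by limma none was lower (5.01% of all genes), and most had no value in the 22 °C table. The plot of 8 members by library shows these levels.

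**Figure D4:**
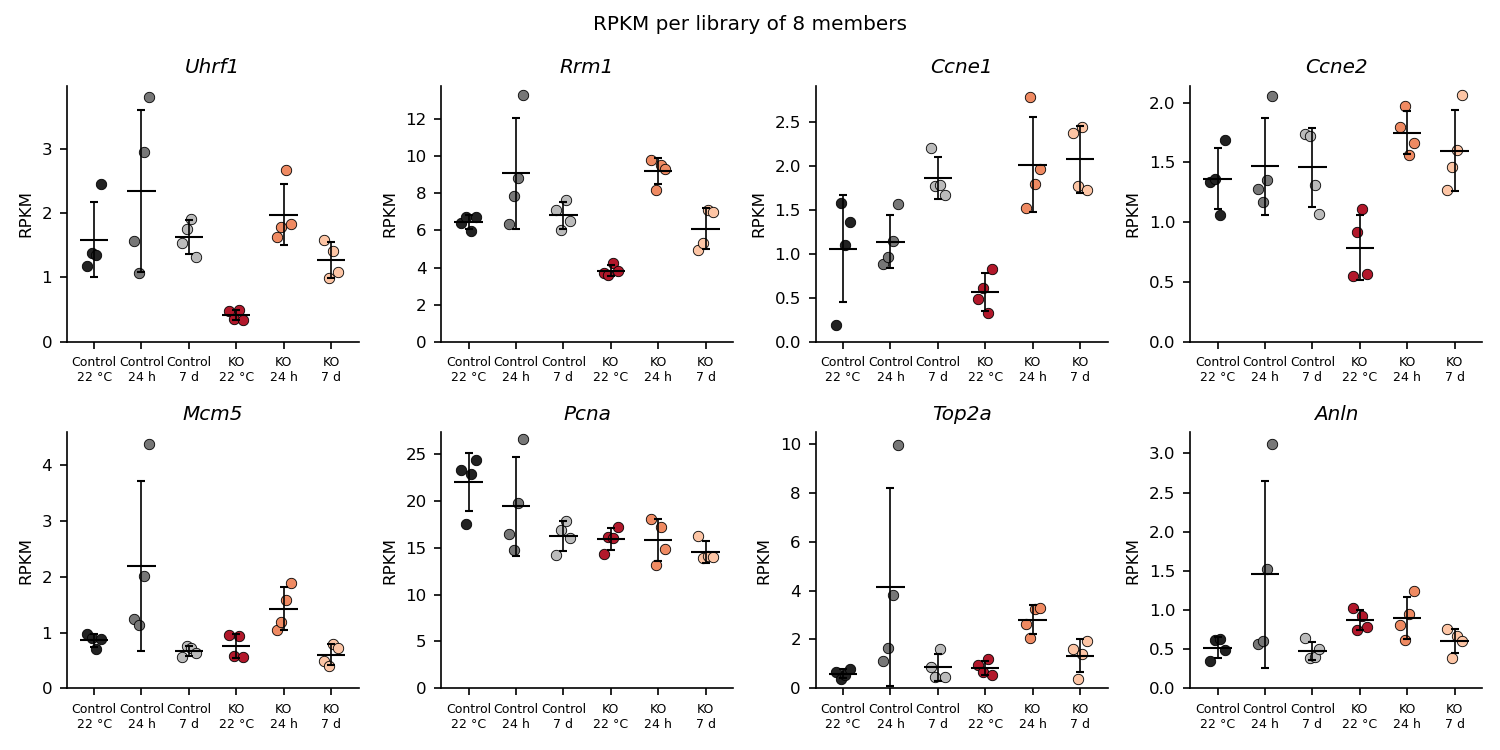
RPKM per library of 8 members in the 6 groups, with the mean (line) and SD (bar, n = 4) of each group. Uhrf1 and Rrm1 are lowest in the 4 KO libraries at 22 °C, Pcna is highest in Control at 22 °C, and Mcm5, Top2a and Anln have 1 Control library at 24 h far above the others.

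At 7 d no member passed the threshold between genotypes. In the authors' deposited table of genotypes at 7 d, 0 of 40 members were higher (9.18% of 12467 genes were) and 0 lower (6.14%), with 22 listed, and 3 were higher and 0 lower at an unadjusted p of 0.05 (14.5% and 12.2% of all genes). The 18 others were below 0.5 RPKM in both genotypes, and 15 of these were listed at another time. Limma called 0 higher (7.99% of all genes) and 0 lower (7.02%) in the same comparison, and 5 higher at an unadjusted p of 0.05 (14% of all genes).

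Comparisons of 7 d with the other times were made by limma alone, as no table holds them. They covered 22 of the 40 members, while the member shares given are over all 40. Against 24 h, 6 members were lower in Control (15%, against 1.39% of 10073 genes): Mcm2, Mcm5, Ccnb2, Mki67, Top2a and Prc1. In KO 5 were lower (12.5%, against 1.9% of 9974 genes): Mcm2, Mcm4, Mcm5, Rrm1 and Rrm2. None was higher in either genotype (1.24% and 2.01% of all genes). By limma, Mki67 fell by 2.01 on the log2 scale in Control (SE 0.41, adjusted p = 0.0109) and Rrm1 fell by 0.64 in KO (SE 0.13, adjusted p = 0.00840). The Control count was 0 without both the 9.81 and 8.93 M libraries, 1 (Mki67) without the 9.81 M library, 2 without the 8.93 or the 5.79 M library, 3 without the 4.64 or the 12.5 M library, 9 without the 8.51 M one and 11 without the 7.51 M one. The KO count was 1, Rrm1, without the library of 9.13 or 12 M reads at 24 h or that of 7.11 or 8.08 M at 7 d, and 3 or 4 without the others.
Mcm5, for example, had Control means of 0.863, 2.19 and 0.666 RPKM and KO means of 0.759, 1.43 and 0.602 at 22 °C, 24 h and 7 d. In both genotypes its 7 d libraries lay below all 24 h libraries, as did those of 8 members in Control (6.25% of all genes) and 10 in KO (4.42%).

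Against 22 °C, 4 members were still higher in KO at 7 d (10%, against 20.8% of 9750 genes) and 1 lower (2.5%, against 17%). They were Uhrf1, Rrm1 and both E cyclins, the same 4 whichever 22 °C or 7 d KO library was left out, and the lower one was Mcm4. Uhrf1 was at 1.58, 0.983, 1.42 and 1.08 RPKM in KO at 7 d, all above the KO libraries at 22 °C, a limma log2 difference of 1.53 (SE 0.28, adjusted p = 1e-04). By limma the differences were 0.62 for Rrm1 (SE 0.13, adjusted p = 0.000645), 1.86 for Ccne1 (SE 0.41, adjusted p = 0.000836), 1.02 for Ccne2 (SE 0.23, adjusted p = 0.000983) and -0.70 for Mcm4 (SE 0.20, adjusted p = 0.00723). In Control, limma called Ccne1 alone (2.5%, against 8.08% of 10328 genes), at 1.86 ± 0.237 RPKM at 7 d, 2.35-fold higher (adjusted p = 0.0468), and none was lower (5.36%). Its 4 libraries at 7 d lay above all those at 22 °C, as for 4.54% of all genes. That call was lost without any one of the 4 Control libraries at 7 d, or without that of 5.35 or 7.88 M reads at 22 °C.
These comparisons share the 22 °C libraries. The rebuilt error was available for 15 of the 40 members. By it, the KO effect at 7 d was higher than at 22 °C for Uhrf1 alone (2.5% of the 40, against 9.53% of 10591 genes tested), by 1.40 on the log2 scale (SE 0.47, adjusted p = 0.0248), and lower for none (5.29%). Limma called the same gene (1.31, SE 0.39, adjusted p = 0.0293; 7.13% of all genes) and none lower (4.11%). Limma lost that call without the Control library of 8.29 M reads or the KO library of 9.16 or 9.83 M at 22 °C, or without the Control library of 4.64 or 12.5 M or the KO library of 7.11 or 9.86 M at 7 d.

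Outside the members, Gmnn encodes geminin, which blocks reloading of the MCM helicase after origins fire. It was at 11.5, 16.4, 19.5 and 24.8 RPKM in Control at 22 °C, and at 2.66, 1.01, 1.29 and 1.04 in KO. In the authors' deposited table this was a log2 difference of -3.37 (adjusted p = 9.07e-34), 10.3-fold lower. In KO it was back at 13.4 to 18.6 RPKM at 24 h and 8.2 to 13.3 at 7 d. Of 42 other replication genes, Gmnn among them, 6 rose and 6 fell in Control recovery and 8 rose and 2 fell in KO recovery in the authors' deposited tables. Of all genes, 13.1% rose and 8.67% fell in Control recovery, and 22.1% rose and 19.8% fell in KO recovery. In KO at 22 °C, 5 of the 42 were higher and 8 lower in the authors' deposited table, against 16.3% and 18% of all genes.

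Of 49 other mitosis genes, 21 rose and 0 fell in Control recovery and 13 rose and 0 fell in KO recovery in the authors' deposited tables, with Cdca3 at 3.71-fold (adjusted p = 0.000827) and 3.56-fold (adjusted p = 0.000205). In KO at 22 °C, 0 of the 49 were higher and 3 lower. The centromeric histone gene Cenpa was lower in KO at 22 °C (log2 difference -1.45, adjusted p = 1.17e-05) and rose 3.03-fold in KO recovery (adjusted p = 4.36e-07) in the authors' deposited tables. Of 51 replication-dependent histone genes, 24 rose and 2 fell in Control recovery and 11 rose and 3 fell in KO recovery, and 11 were lower and 0 higher in KO at 22 °C, all in the authors' deposited tables. For both lists, the shares of all genes were 13.1% higher and 8.67% lower in Control recovery. They were 22.1% and 19.8% in KO recovery, and 16.3% higher and 18% lower in KO at 22 °C. Histone genes are near-identical copies, and the sources used here do not say how reads shared between copies were counted. Their sum over 45 genes was 369, 355, 476 and 935 RPKM in the Control libraries at 24 h, highest in the 9.81 M library as the members were.

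Of 30 G1 cyclin, E2F and DREAM genes, 4 rose and 1 fell in Control recovery (13.1% and 8.67% of all genes) in the authors' deposited table. In that for KO recovery, 3 rose and 1 fell (22.1% and 19.8% of all genes). Of the same 30, 3 were higher and 3 lower in KO at 22 °C (16.3% and 18% of all genes). At 24 h 3 were higher and 2 lower in KO (10.5% and 7.96%). E2f2, an activating E2F, rose 3.64-fold in Control recovery in the authors' deposited table (adjusted p = 9.11e-07), and it was lower in KO at 22 °C and at 24 h (log2 differences -1.87 and -2.02, adjusted p = 0.000109 and 6.87e-08). Of 11 inhibitors and growth arrest genes, 1 rose and 1 fell in Control recovery in the authors' deposited tables (13.1% and 8.67% of all genes). In KO recovery 2 rose and 4 fell (22.1% and 19.8%). In KO against Control, 4 were higher and 1 lower at 22 °C (16.3% and 18%). At 24 h it was 1 and 1 (10.5% and 7.96%), and at 7 d 3 and 1 (9.18% and 6.14%). Among the 11, Cdkn1a, the p21 inhibitor of Cdk2, rose 3.19-fold in Control recovery (adjusted p = 1.63e-06 in the authors' deposited table). Its Control libraries were at 12.1 to 16.8 RPKM at 24 h, against 2.5 to 7.1 at 22 °C. At 7 d it was 4.26-fold higher in KO than in Control in the authors' deposited table (adjusted p = 6.06e-10). Btg2, an antiproliferative gene, was 6.73-fold higher in KO at 22 °C (adjusted p = 9.18e-07) and fell in KO recovery by 3.54 on the log2 scale (adjusted p = 4.35e-10), both in the authors' deposited tables.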

How the data were processed

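Brown fat RNA was depleted of ribosomal RNA and sequenced from 24 biological replicates in 6 groups of 4, per the labels. STAR, featureCounts and edgeR with build mm9 are named, without versions, in the submitters' processing notes. The sources used here do not say whether strand was used. In the 5 deposited tables the authors give group means that were read as RPKM, a log2 fold change, a p-value and a p-value adjusted over 13414 genes. The headers do not name the unit of the means. It was checked against the deposited average log2 CPM, from which rebuilt means differed by a median of -0.52.

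Members and lists were chosen with earlier results of these data known. A call is the authors' adjusted p under 0.05. Whole library totals and reads per library were recovered from the deposited means for genes of up to 500 mean reads, and checked on simulated data. Libraries have no replicate number and are named by total. Limma 3.58.1 (R 4.3.3, trend, Benjamini-Hochberg adjustment over all genes read) was run on log2 CPM of reads + 0.5, scaled by median-of-ratios factors. It was added after the data were seen, as was leaving out the deepest 2 Control libraries at 24 h. A planned count test was not run, because the deposited files hold no counts. Changes of the KO effect between times were tested with errors rebuilt from the authors' p-values (p up to 0.9). Members were named by role, and other lists by their smallest p. Precision is limited by reads per member, and p-values measure the spread between libraries.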

Additional observations from a re-analysis of the deposited data

Results flagged for a closer look

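Sets of 4 libraries with at least 10 reads on average were tested by Dixon's test at its critical value. Members share libraries, so the sets are not independent and no rate by chance is set beside the count. Of 142 such sets, 6 (4.23%) held a member level far from the other 3. These were Uhrf1 in Control at 22 °C (highest 2.45 RPKM), Mki67 in KO at 22 °C (highest 0.979), Ube2c in Control at 24 h (highest 3.18), Mcm4 in KO at 24 h (lowest 1.96), Tyms in Control at 7 d (lowest 0.635) and Pcna in KO at 7 d (highest 16.3).

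The KO effect differed between 24 h of recovery and 22 °C, on the log2 scale and by a test of the difference, by 0.69 for Rrm1, 1.61 for Uhrf1, 1.67 for Ccne1 and -1.45 for Anln. Between 7 d and 22 °C it differed by 1.40 for Uhrf1. In Control at 22 °C, Ccne1 had 2 reads in the library of 5.35 M reads, and the Ccne1 difference at 24 h was called by limma without that library and not with it.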

How the results depend on the processing

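No called change reversed its direction in the alternatives run. The median difference between genotypes at 24 h, -0.32 in the authors' deposited table, was 0.09 by limma. Of the alternative values for counts and medians, 225 stayed close to the reported value and 45 moved, and of those for single genes 73 kept their call and 23 lost it, among them Mcm6, Rrm2, Cdk1, Aurka, Aurkb, Cdca8, Cdc20 and Nusap1 in Control recovery and Kif11 in KO recovery under limma. With limma scaled by library totals alone, 16 members were higher in Control recovery (25 in the authors' deposited table, 17 by limma with median-of-ratios scaling), 0 were higher and 5 lower in KO at 22 °C (1 and 2 by either of those) and 0 higher in KO at 24 h (1 by either). At an adjusted p under 0.01, 0 members were higher in KO at 22 °C and 0 at 24 h, and at 0.1, 2 were at 24 h and 2 at 7 d. The median log2 change in Control recovery, 1.75 as reported, was 0.67 from ratios of means with a pseudocount of 1 and 0.71 over the 18 members listed in all tables. In KO recovery, 1.23 as reported, it was 0.50 with that pseudocount. Over the same 18 members the middle values in KO recovery were 1.03 (Mcm2) and 1.04 (Tyms), above the Control median of that set. The cause was not tested, though a pseudocount of 1 by construction shrinks changes of genes near 0.5 RPKM.

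Leaving out 1 library at a time of the groups compared under limma gave 11 to 24 members higher in Control recovery and 14 to 19 in KO recovery, with 0 lower in both. Leaving out 1 library of another group gave 17 to 18 and 19 to 24. In KO against Control it gave 0 to 1 higher and 2 to 3 lower at 22 °C, 0 to 2 higher at 24 h and 0 to 2 higher at 7 d, with 0 lower at the last 2. The medians ranged from 0.84 to 1.67 in Control recovery, 1.22 to 1.41 in KO recovery, 0.11 to 0.26, -0.26 to 0.44 and 0.15 to 0.30 between genotypes at 22 °C, 24 h and 7 d. The KO effect differed in 2 to 3 members at 24 h and 0 to 2 at 7 d. No paired analysis was possible because the recovered libraries cannot be tied to the replicate numbers of the labels.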
